A study of Caenorhabditis elegans with 2 samples.

Results

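The small nucleolar RNA (snoRNA) genes of *Caenorhabditis elegans* were examined as sites of peaks in a chromatin immunoprecipitation sequencing (ChIP-seq) study of the tagged transcription factor VAB-7. The set held all 346 genes of biotype snoRNA among the 46890 genes annotated on the 6 nuclear chromosomes in Ensembl release 115, whether or not a peak lay near them. Of these, 169 were intronic, lying whole inside an intron of a protein-coding gene on either strand and touching no protein-coding exon. Another 124 were intergenic, outside the span of every protein-coding gene, and the other 53 overlapped a protein-coding gene in some other way. A gene was counted as having a summit when the highest point of a peak was no more than 200 bp from its 5′ end.

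There was 1 group, with 2 biological replicates: whole L4 larvae 47 hours old of strain RW12267, in which a CRISPR insertion at the native vab-7 locus adds TY1, EGFP and 3xFLAG to the protein. The larvae had been synchronized as starved L1 animals after bleaching, the chromatin was sheared by sonication and an antibody against GFP was used. The labels number the replicates and do not describe how the cultures were kept apart. Both replicates carry the tag, and the control experiment that the labels name was not analysed here, so whether a summit depends on VAB-7 was not tested. A summit from whole animals also does not show in which cells it arose.

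snoRNAs guide the modification of other RNAs, above all ribosomal RNA. C/D box snoRNAs direct 2′-O-methylation by fibrillarin, and H/ACA box snoRNAs direct pseudouridylation by dyskerin. Many animal snoRNAs are cut from the introns of host transcripts, others have promoters of their own, and in *C. elegans* some snoRNA genes, intronic ones included, are known to be transcribed by RNA polymerase III. At tRNA genes that polymerase is recruited through an A box and a B box inside the gene, which transcription factor TFIIIC binds, and a run of T bases ends transcription. VAB-7 is a homeodomain protein of the Even-skipped class.

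The sequences before the snoRNA genes with the strongest peaks are shown because many of them hold a tRNA-type A box followed by a B box. The genes of highest signal were chosen without this feature, but the sequences printed first were picked for holding both boxes. The 100 bases before the 5′ end were searched on the gene's own strand for both 11-base words with up to 1 mismatch each, the B box starting 20 to 65 bases after the A box. The words and limits were set after these sequences had been seen. Of the 8 intronic and 8 intergenic genes of highest signal, 9 held both boxes, and 8 of these are printed here: 4 intronic genes, C51F7.3, T03F7.8, F55A11.10 and C10C6.8, then 4 intergenic genes, W03C9.9, Y75B12B.12, F30H5.4 and F32E10.10. Capitals mark the A box and then the B box, and each line runs 5′ to 3′ up to the base before the gene. In RefSeq's WBcel235 genome, whose coordinates are those of ce11, the windows are chrV:12303608-12303707 (plus strand) for C51F7.3, chrV:11314158-11314257 (plus strand) for T03F7.8, chrV:11782892-11782991 (plus strand) for F55A11.10, chrIV:11474192-11474291 (minus strand) for C10C6.8, chrII:11960798-11960897 (plus strand) for W03C9.9, chrV:15191094-15191193 (minus strand) for Y75B12B.12, chrIII:502704-502803 (plus strand) for F30H5.4 and chrIV:7574022-7574121 (plus strand) for F32E10.10.
C51F7.3: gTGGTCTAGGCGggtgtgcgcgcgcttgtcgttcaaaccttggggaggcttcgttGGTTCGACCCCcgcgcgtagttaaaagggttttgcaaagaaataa
T03F7.8: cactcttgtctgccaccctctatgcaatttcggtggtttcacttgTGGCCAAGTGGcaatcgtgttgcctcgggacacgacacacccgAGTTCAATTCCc
F55A11.10: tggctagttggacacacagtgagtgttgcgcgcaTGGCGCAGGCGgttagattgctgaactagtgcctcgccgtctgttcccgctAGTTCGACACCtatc
C10C6.8: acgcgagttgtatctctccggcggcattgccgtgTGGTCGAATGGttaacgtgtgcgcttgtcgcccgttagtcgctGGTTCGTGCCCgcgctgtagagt
W03C9.9: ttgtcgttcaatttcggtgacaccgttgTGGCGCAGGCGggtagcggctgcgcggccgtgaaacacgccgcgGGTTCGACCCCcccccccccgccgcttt
Y75B12B.12: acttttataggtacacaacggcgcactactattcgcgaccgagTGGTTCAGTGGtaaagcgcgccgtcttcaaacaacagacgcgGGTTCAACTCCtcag
F30H5.4: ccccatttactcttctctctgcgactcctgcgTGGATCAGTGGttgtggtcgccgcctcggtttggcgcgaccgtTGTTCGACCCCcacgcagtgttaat
F32E10.10: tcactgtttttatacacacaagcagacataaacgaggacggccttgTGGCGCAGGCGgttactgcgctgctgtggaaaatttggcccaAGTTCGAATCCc

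Strong peaks also lay at snoRNA genes without such a pair of boxes. The windows before 2 intronic genes are shown for contrast, from chrV:8500479-8500578 (plus strand) for ZK994.7 and chrII:11484583-11484682 (plus strand) for B0334.12. No run in them matched both boxes, which says only that these letters are not in these windows. The peak at B0334.12, chrII:11484709-11484915, lies outside the window printed for that gene. The window therefore does not show the sequence under that peak.
ZK994.7: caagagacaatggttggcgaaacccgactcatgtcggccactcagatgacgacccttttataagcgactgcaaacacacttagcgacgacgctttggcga
B0334.12: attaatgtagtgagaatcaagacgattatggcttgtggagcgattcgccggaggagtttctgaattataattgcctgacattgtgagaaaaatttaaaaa

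Examples of both snoRNA families were among the genes with strong peaks. Over all members the exact words were in the minority, the C box in 20 of 346, the D box in 81 and the ACA in 58. The C51F7.3 and F30H5.4 genes are shown for the C box (TGATGA) near the start and the D box (CTGA) near the end, and C10C6.8 for the ACA trinucleotide before its last 3 bases, all in capitals. They lie at chrV:12303708-12303783 (plus strand) for C51F7.3, chrIII:502804-502889 (plus strand) for F30H5.4 and chrIV:11474059-11474191 (minus strand) for C10C6.8.
C51F7.3: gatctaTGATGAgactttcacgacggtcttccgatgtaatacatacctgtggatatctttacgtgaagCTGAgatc
F30H5.4: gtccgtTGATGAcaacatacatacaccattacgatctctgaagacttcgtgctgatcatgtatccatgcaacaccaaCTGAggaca
C10C6.8: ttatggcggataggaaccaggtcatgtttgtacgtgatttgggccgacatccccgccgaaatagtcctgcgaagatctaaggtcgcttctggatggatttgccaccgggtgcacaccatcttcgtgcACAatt

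In the list called over both replicates, named the series list here, 75 of the 346 snoRNA genes had a summit (21.7%, exact 95% interval 17.4 to 26.4). Among genes of all other biotypes the percentage was 2.95. tRNA genes stood at 72.9%, small nuclear RNA (snRNA) genes at 17.8% and protein-coding genes at 1.77% with the same window. The snoRNA share was thus below that of tRNA genes, above that of all other genes together, and its interval overlapped that of snRNA genes (11.7 to 25.5). These intervals cover the sampling of genes only, and no test was made, since genes are not replicates.

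Intronic and intergenic snoRNA genes had summits at similar shares. The series list put a summit at 35 of 169 intronic genes (20.7%, 14.9 to 27.6) and at 33 of 124 intergenic genes (26.6%, 19.1 to 35.3). The intronic share was lower by 5.90 percentage points, and the intervals of the shares overlapped. Of the 53 overlapping genes 7 had one (13.2%, 5.48 to 25.3). tRNA genes ran in the other order, with 76.0% of the intronic (70.6 to 80.8) and 70.5% of the intergenic ones (65.2 to 75.5), intervals that overlapped too.

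Each replicate's own list gave the same order of the classes. In replicate 1, 25 intronic (14.8%) and 26 intergenic genes (21.0%) had a summit, against a background of 1.91% of genes of other biotypes. In replicate 2, 31 intronic (18.3%) and 27 intergenic genes (21.8%) did, against a background of 2.15%. Over all classes this made 58 members in replicate 1 and 67 in replicate 2. The conservative list of the series held 34 intronic (20.1%) and 32 intergenic genes (25.8%), where the background was 2.84%. In these lists the snoRNA shares were several times the background, while the gap between the classes was small beside its intervals. Where a peak in each replicate list had to cover 50% of the series peak, the order turned, with 13.6% of intronic and 12.1% of intergenic genes.

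**Figure D1:**
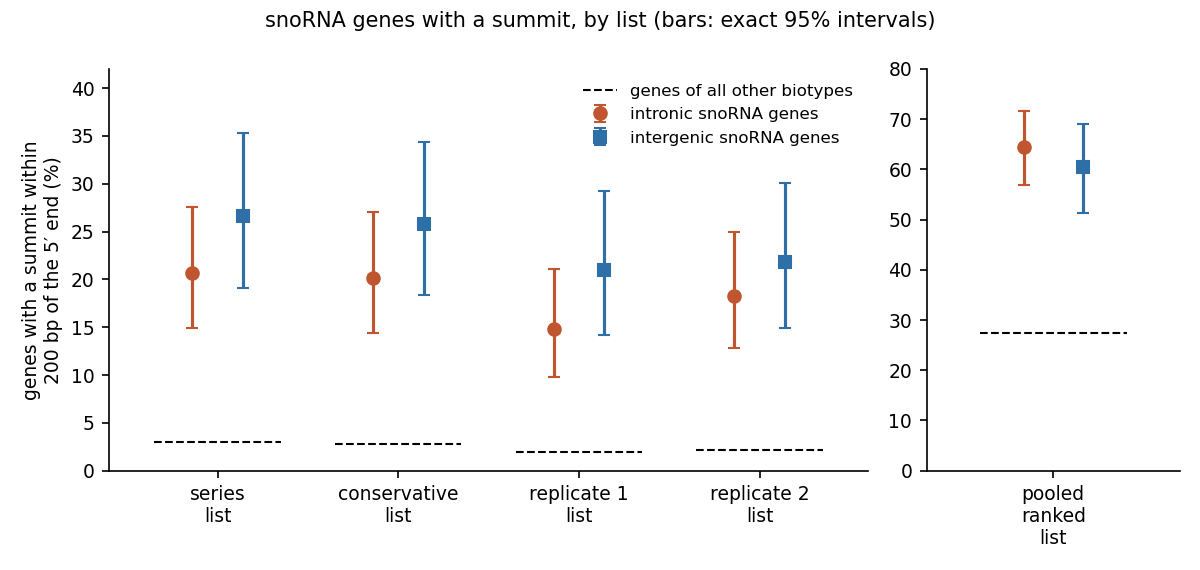
Percentage of intronic (circles) and intergenic (squares) snoRNA genes that had a summit, by the limit of 200 bp, in each list of peaks, with exact 95% intervals. Dashed lines give the percentage for genes of all other biotypes. In the 4 thresholded lists, series to replicate 2, the intronic circle sits below the intergenic square with overlapping intervals, and in the pooled ranked list, on its own axis, the order is the other way round.

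The pooled ranked list, which keeps weak peaks, turned that order round. It held 88007 peaks and put a summit at 109 of 169 intronic genes (64.5%, 56.8 to 71.7) and at 75 of 124 intergenic genes (60.5%, 51.3 to 69.1), with a background of 27.5%. Of the 271 snoRNA genes without a summit in the series list, 140 had one in this list. Their median signal was 31.7, and none reached the lowest score of the series list, 830 on the authors' scale of the irreproducible discovery rate, which tops out at 1000. That follows largely from how these genes were chosen, since 72 of the 86192 ranked peaks outside the series list reached that score. The weak summits lay at 74 of 134 intronic genes (55.2%, median signal 31.9) and at 42 of 91 intergenic genes (46.2%, median signal 33.3).

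The signal of a peak, a value of the authors' peak caller whose normalization is not stated, was similar at intronic and intergenic snoRNA genes with a summit. In the series list it ran from 63.9 to 439 with a median of 211 at intronic genes, and from 75.0 to 438 with a median of 215 at intergenic genes, a log2 ratio of medians of -0.03. The replicates gave ratios of the same size: the medians were 124 at intronic and 127 at intergenic genes in replicate 1, and 106 at intronic and 111 at intergenic genes in replicate 2. The ranges of the classes overlapped almost whole. Over the pooled ranked list, where weak peaks enter, the medians were 45.8 at intronic and 72.6 at intergenic genes, a log2 ratio of -0.67.

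Peaks at snoRNA genes were among the stronger ones of the series. Their 75 summits had a median signal of 206 and a median rank of 242 among 1815 peaks, and 22 were in the top 100. The 418 peaks at tRNA genes had a median of 151, the 22 at snRNA genes 130, and the 1301 peaks at none of these 95.9. The snoRNA peaks were also narrow, with a median width of 227 bp beside 304 bp for all series peaks. No summit at a snoRNA gene was also within 200 bp of a tRNA or snRNA gene start. Within 500 bp, 2 snoRNA genes had a tRNA 5′ end, 1 of them with a summit, and 2 had an snRNA 5′ end, neither with a summit.

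The intronic gene with the highest signal was C51F7.3, a C/D snoRNA gene of 76 bases inside frm-7, a FERM domain gene. Its peak had a signal of 439 in the series list, 231 in replicate 1 and 218 in replicate 2. The same summit lay inside C51F7.4, an overlapping-class gene just upstream whose annotated span holds both boxes printed for C51F7.3. These were the only 2 members to share a summit. ZK994.7, inside the peroxidasin gene pxn-1, followed with 436 in the series list, 269 in replicate 1 and 161 in replicate 2. The 5′ end of pxn-1, 5690 bp from that of ZK994.7, had a separate peak with a signal of 130. So the peak in the intron was stronger than the one at the host's start.

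The other 6 of the 8 intronic genes of highest signal lay between 360 and 287. B0334.12, on the strand opposite to the potassium channel gene twk-5, had 360 in the series list, 187 in replicate 1 and 168 in replicate 2, with the summit 130 bp after the 5′ end and so past the end of this gene of 70 bases. T03F7.8, opposite to the cuticlin-like gene cutl-18, had 354, with 164 in replicate 1 and 181 in replicate 2. C27H6.5 in unc-41, whose product acts in synaptic vesicle recycling, had 334, with 179 in replicate 1 and 149 in replicate 2. None of these hosts is known as a ribosome or snoRNP gene. C27H5.9, opposite to pdl-1, had 299 in the series list, with 150 in replicate 1 and 144 in replicate 2. F55A11.10 in F55A11.6 had 291, with 137 in replicate 1 and 148 in replicate 2. C10C6.8, in the cation transporter gene catp-8, had 287, with 164 in replicate 1 and 124 in replicate 2. Neither replicate was always the higher one.

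Among intergenic genes W03C9.9 came first, with 438 in the series list, 215 in replicate 1 and 220 in replicate 2. F59C6.15 had 411, with 207 in replicate 1 and 196 in replicate 2. T06C12.16 had 408, with 207 in replicate 1 and 194 in replicate 2. The annotation gives these genes no name beyond the sequence name and no target RNA. Y75B12B.12 had 337, with 197 in replicate 1 and 131 in replicate 2, and the next 4, T19B4.8, ZK265.10, F30H5.4 and F32E10.10, had between 316 and 276 in the series list. The 4 overlapping-class genes of highest signal were C51F7.4 with 439, T02E1.9 with 292, T27A3.9 with 291 and F39B2.14 with 171. At all 20 of these genes the series peak was overlapped by a peak in the list of each replicate.

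Further down the order the replicates parted. Over the 75 genes, the series peak was overlapped in both replicate lists at 51 (68.0%, 56.2 to 78.3), in replicate 1 alone at 5, in replicate 2 alone at 10 and in neither at 9. The share seen in both was 23 of 35 for intronic genes (65.7%) and 22 of 33 for intergenic genes (66.7%). For 74 members with a summit, each replicate's ranked list held a summit too, and the log2 signals of the replicates had a Pearson correlation of 0.829 and a Spearman correlation of 0.832 across these genes. Replicate 1 had the higher value at 56 of them. Over all peaks its ranked list was also higher, with a median of 18.4 against 14.3 in replicate 2. Across the 82 members without a series summit but with a ranked summit in each replicate, the correlations were 0.374 and 0.440. The series list keeps peaks by their reproducibility between these same replicates, so the contrast between these correlations is partly fixed by that choice. These are descriptions over genes that share libraries and depth, not tests.

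**Figure D2:**
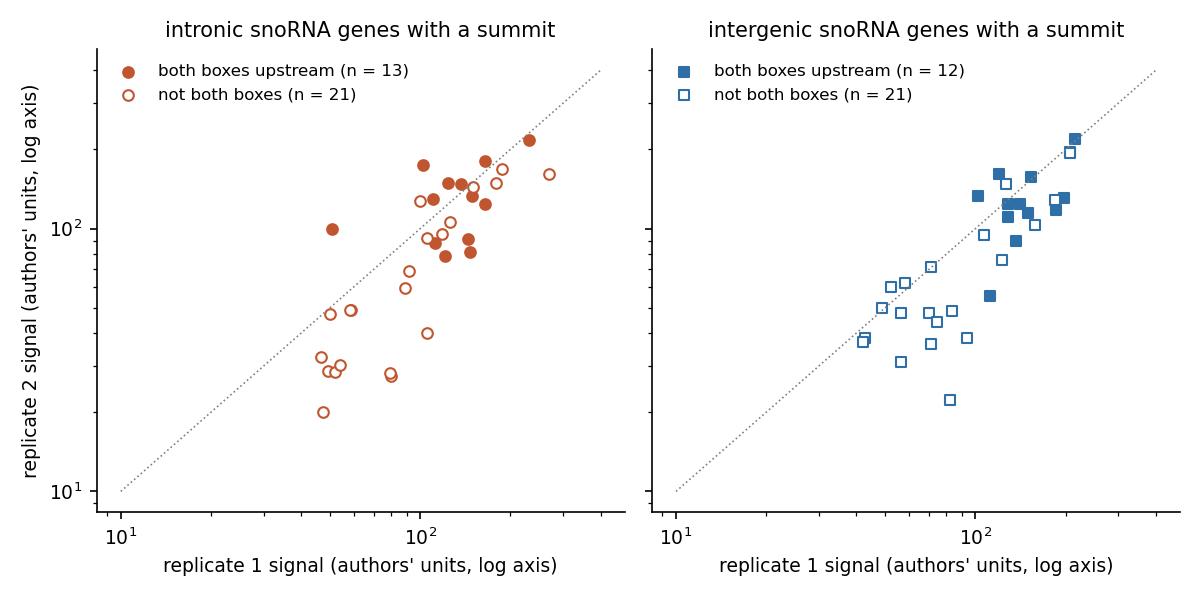
Signal of the summit in the ranked list of replicate 1 (x) against that of replicate 2 (y), on log axes, for intronic (left, circles) and intergenic (right, squares) snoRNA genes with a series summit; overlapping genes are not drawn. Filled points have both boxes upstream and open points do not. The filled points sit in the upper part of each cloud, and most points lie under the dotted line of equal signal.

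Summits lay mostly before the snoRNA gene. The median position over the 75 genes was 35 bp upstream (-35, quartiles -55.5 and -3.5), and 58 of them (77.3%, 66.2 to 86.2) were upstream of the 5′ end. Another 14 were inside the gene and 3 past its 3′ end. Intronic genes had a median of -39 bp with 22 of 35 summits between -70 and -20 bp, and intergenic genes a median of -26 bp with 14 of 33 summits there. The median was -33 bp in replicate 1 and -41 bp in replicate 2. At tRNA genes, whose boxes are internal, the median was 18 bp downstream of the 5′ end, and 327 of 446 genes had the summit inside the gene. snoRNA and tRNA genes thus differed in the side of the 5′ end on which summits fell.

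**Figure D3:**
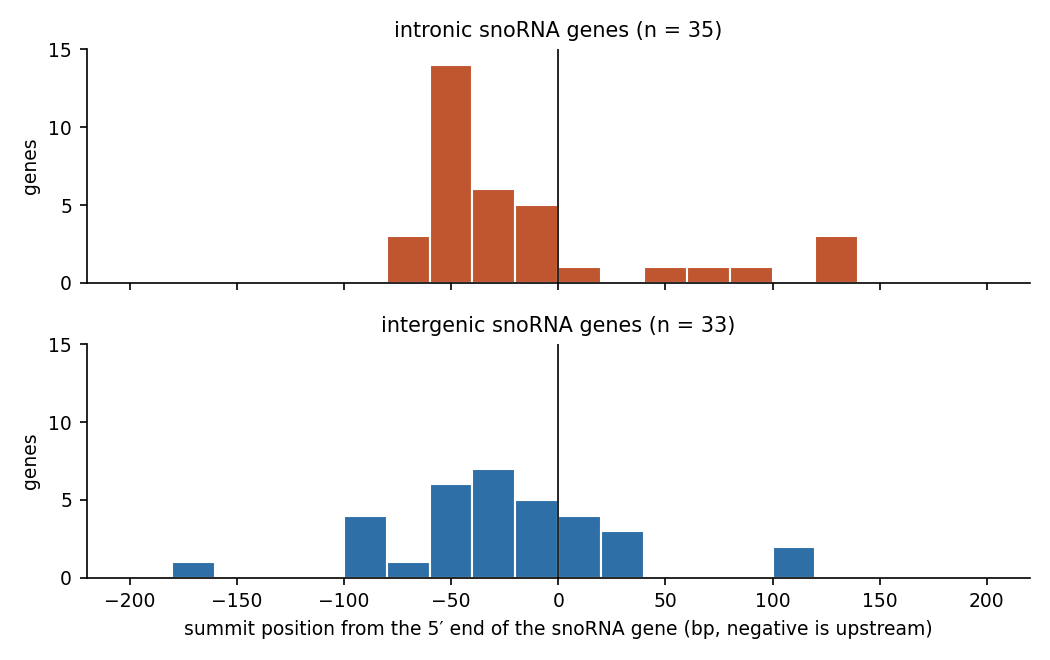
Number of snoRNA genes (y) by position of the strongest series summit relative to the 5′ end in bins of 20 bp (x, negative is upstream), for 35 intronic (top) and 33 intergenic genes (bottom). The intronic genes pile up between -60 and -40 bp, and the intergenic genes spread more widely on both sides of the 5′ end.

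The window of 200 bp had few members near its edge. The outermost summits inside were at -178 bp for M7.15, with a signal of 148, and at -145 bp for C02F5.15, with 125. M7.15 was also the only member with more than 1 series summit, the weaker one at 27 bp with a signal of 15.3. Just outside lay F37F2.4, with a summit of 93.3 at -223 bp, and F54E7.10 in the ribosomal protein gene rps-12, with a summit of 217 at -254 bp.

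The pair of boxes shown above was found upstream of 27 of the 75 snoRNA genes with a summit (36.0%, 25.2 to 47.9). The words and limits of the search were set after viewing sequences before members with strong summits, so its contrasts with summits and signals over the same genes are partly fixed by that choice and support nothing. The pair was found upstream of 9 of the 271 without one (3.32%, 1.53 to 6.21) and of 9 of 19973 protein-coding genes (0.0451%). The same search over tRNA gene bodies found the pair in 583 of 612 (95.3%). Intronic and intergenic genes with a summit held it at like shares, 13 of 35 and 12 of 33. Read the other way, 27 of the 36 snoRNA genes with the pair had a summit (75.0%, 57.8 to 87.9), against 48 of the 310 without it (15.5%). By class, a summit lay at 13 of 19 intronic genes with the pair and 22 of 150 without it. For intergenic genes it lay at 12 of 14 with the pair and 21 of 110 without it.

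The lists of the single replicates come from the same libraries as the series list, so a like split in them adds no support. Of the 36 genes with the boxes, 27 had a summit in replicate 1 and 29 in replicate 2, and of the 310 without them 31 had one in replicate 1 and 38 in replicate 2. The series signal of the 27 genes with boxes and a summit ran from 140 to 439 with a median of 262, and that of the 48 without both boxes from 63.9 to 439 with a median of 127. The 439 among the 48 is C51F7.4, whose summit is also that of C51F7.3, and the other 47 ran from 63.9 to 436 with a median of 125. Peaks of 26 of the 27 were overlapped in both replicate lists, against 25 of the 48. The ranked signals had medians of 137 in genes with boxes and 82.0 in genes without them in replicate 1, and of 124 in genes with boxes and 55.5 in genes without them in replicate 2. Among genes without the pair, ZK994.7 had 436 and B0334.12 had 360.

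In most of these 27 genes the summit lay on the boxes or between them. The A box started at a median of -60 bp and the B box at -15 bp, a median of 43 bases apart, which was also the median spacing inside tRNA genes. The summit was a median of 17 bases after the start of the A box (10 at tRNA genes), and 21 of the 27 summits fell between the start of the A box and the end of the B box. Windows of 17 of the 27 touched no annotated gene other than protein-coding ones, while 8 touched a gene of biotype ncRNA, 2 a pseudogene and 1 another snoRNA gene, which is C51F7.4. On the opposite strand, with up to 1 mismatch in each word, the pair was found at none of the genes with or without a summit. With no mismatch allowed on the gene's own strand, it was at 5 of 75 with a summit and 2 of 271 without. The degenerate words therefore rest on the allowance of 1 mismatch.

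**Figure D4:**
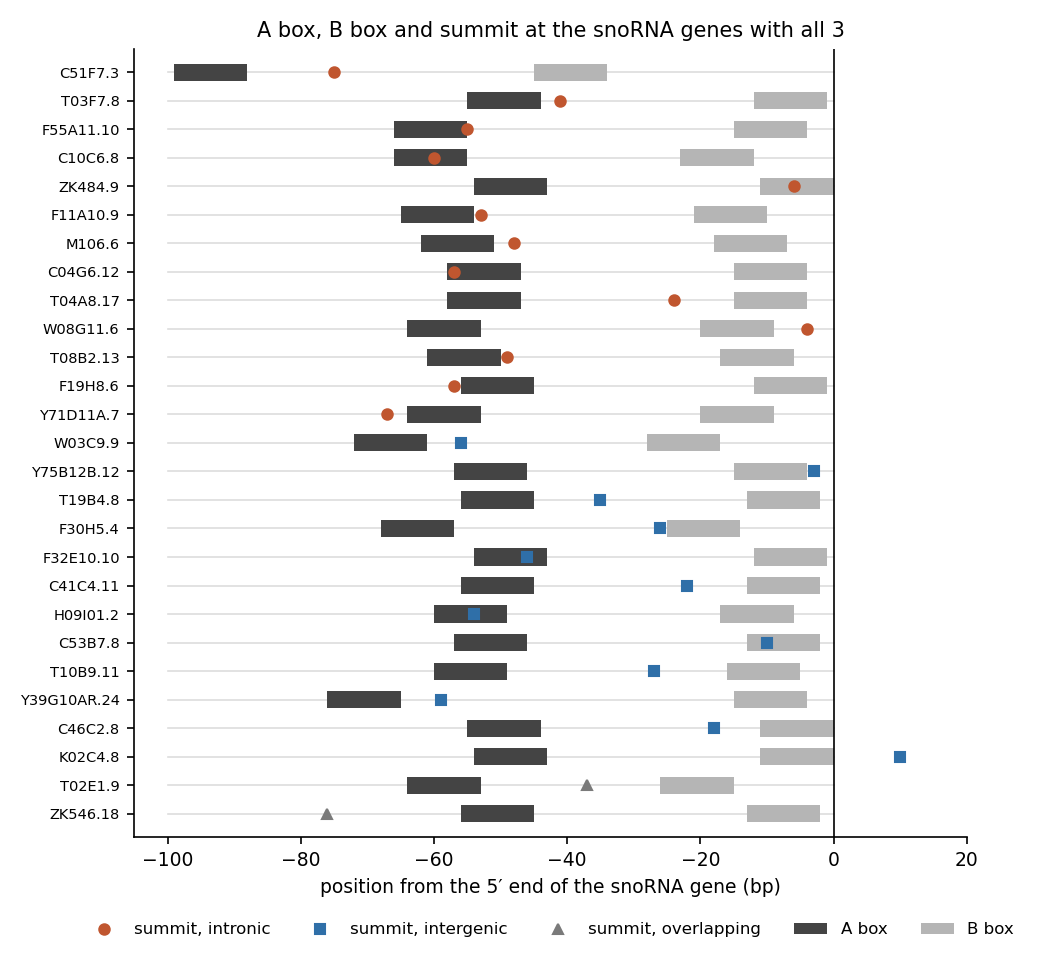
A box (dark bars), B box (light bars) and series summit (symbols) at the 27 snoRNA genes with all of them, by position from the 5′ end in bp, one gene a row, with 13 intronic genes on top, then 12 intergenic and 2 overlapping ones, each by falling signal. Most symbols fall on or between the bars, and K02C4.8 alone has its summit inside the gene, at 10 bp.

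Weak peaks, or peaks of 1 replicate, lay at all 9 genes that had the boxes and no series summit. The ranked lists keep many weak peaks, and the share with a peak in any list was not counted for the other genes. T24H7.6 had 59.8 in the pooled ranked list and 44.8 in the list of replicate 2. F38E11.14, in an intron of the cyclic nucleotide-gated channel gene cng-3, had 130 in the list of replicate 2 and no summit in the pooled ranked list or that of replicate 1. F12F6.11, an intergenic gene, had 78.5 in the list of replicate 1 and none in the pooled ranked list or that of replicate 2. They were singled out after their values were seen. A pooled ranked summit lay at 6 of the 9, beside 140 of all 271 snoRNA genes without a series summit (51.7%, 45.5 to 57.7). At the 6 genes the signal ran from 24.0 at ZC395.12 to 73.1 at Y6B3B.15.

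In all, 7 snoRNA genes had a summit in the list of a replicate and none in the series list. W01C9.6, an overlapping-class gene, was in both replicate lists, at 93.7 in replicate 1 and 101 in replicate 2, but had no summit in the pooled ranked list. C14C10.8 had 121 in the conservative list and in the pooled ranked list, where its score of 770 was under the lowest of the series list, and 49.9 in replicate 2. It also had the highest pooled signal of any member without a series summit, followed by W06H8.17 at 87.3, C08D8.3 at 81.5 and W03B1.17 at 75.9. These genes show that the lists do not nest: of 58 members in replicate 1 the series list held 56, and of 67 in replicate 2 it held 61.

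A run of 5 T bases in the 30 bases after the gene, the kind of run at which RNA polymerase III is known to stop, followed 37 of the 75 snoRNA genes with a summit (49.3%, 37.6 to 61.1) and 54 of the 271 without one (19.9%, 15.3 to 25.2). Over protein-coding genes the share was 27.4%. Intronic genes had the run in 22 of 35 with a summit and 32 of 134 without, and intergenic genes in 12 of 33 with a summit and 14 of 91 without. Genes with both boxes and a summit had it in 19 of 27, and those with a summit but not both boxes in 18 of 48.

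Shorter words before the gene, read on both strands of 200 bases, gave smaller contrasts. GGTTCG, which the B box contains, was before 13 of 75 genes with a summit (17.3%), 20 of 271 without (7.38%) and 2.15% of protein-coding genes. GCGCGC was before 13 of 75 (17.3%), 11 of 271 (4.06%) and 2.55% of protein-coding genes. The TATA-type word TATAAA was before 14 of 75 (18.7%), 46 of 271 (17.0%) and 30.4% of protein-coding genes. TAATTA and TAATGA, words of the kind that homeodomain proteins are known to bind, were before 2 and 3 of the 75, and before 20 and 26 of the 271. Over protein-coding genes those words stood at 11.8% and 13.7%, so they were no more common at the snoRNA genes with a summit than elsewhere. No match says only that the letters are not in the window.

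Short snoRNA genes had summits most often. Members ran from 54 to 344 bases, and 31 of the 54 genes of 61 to 80 bases had a summit (57.4%, 43.2 to 70.8), with a median signal of 262. The share was 12.5% at 81 to 110 bases, 19.1% at 111 to 140, 13.8% at 141 to 180 and 11.9% at 181 to 400 bases. In the class of 61 to 80 bases 15 of 32 intronic and 14 of 20 intergenic genes had one, and the counts were 28 in replicate 1 and 31 in replicate 2. Genes with both boxes were part of this: 20 of the 54 had them, 17 with a summit. Of the 34 without them 14 still had a summit (41.2%, 24.6 to 59.3), while the classes of longer genes without boxes stood between 9.26% and 13.8%.

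**Figure D5:**
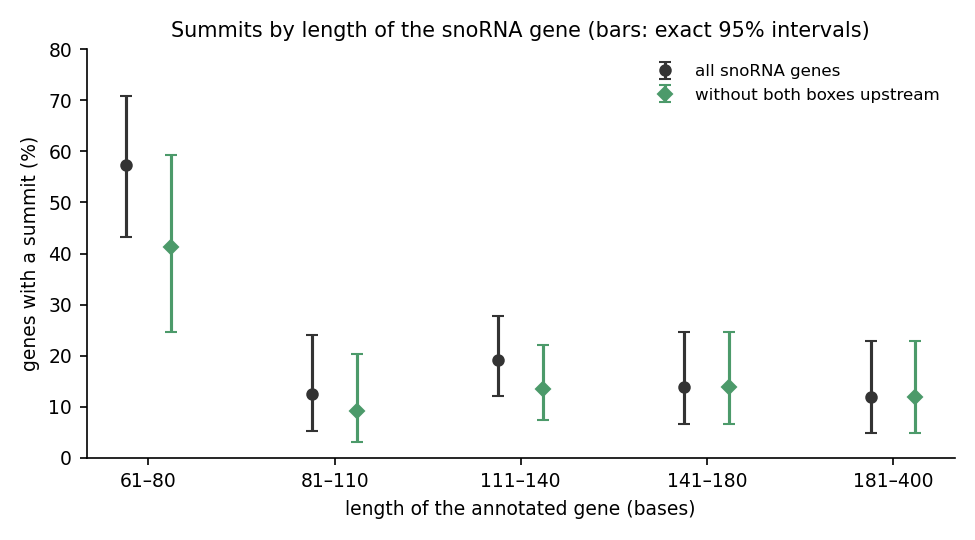
Percentage of snoRNA genes with a series summit (y) by length of the annotated gene in bases (x), for all genes (circles) and for genes without both boxes upstream (diamonds), with exact 95% intervals; the 2 genes under 61 bases had no summit and are not drawn. The class of 61 to 80 bases stands at 57.4% for all genes and at 41.2% without boxes, above every longer class.

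Of the boxes of the snoRNA families, the D box was more frequent in genes with a summit. For the C box and the ACA the intervals overlapped. The D box was in the last 20 bases of 36 of 75 genes with a summit (interval 36.3% to 59.8%) and 45 of 271 without (16.6%, 12.4 to 21.6). The difference was wider among intergenic genes, with 21 of 33 against 8 of 91, than among intronic genes, with 15 of 35 against 29 of 134; it was not tested. The exact C box was rarer, in 9 of 75 (interval 5.64% to 21.6%) and 11 of 271 (2.04% to 7.15%). The ACA trinucleotide stood at 18 of 75 with a summit (24.0%, 14.9 to 35.3) and 40 of 271 without (14.8%, 10.8 to 19.6). It was mostly an intronic feature, in 46 of 169 intronic and 9 of 124 intergenic genes. Among intronic genes it was in 11 of 35 with a summit (31.4%) and 35 of 134 without (26.1%). Among intergenic genes it was in 6 of 33 with a summit and 3 of 91 without. Both snoRNA families were thus among the genes with summits. The genes were also split by length and D box together. Among genes of 61 to 80 bases a summit lay at 20 of 34 with the D box (58.8%) and 11 of 20 without it (55.0%). Among genes of other lengths it lay at 16 of 47 with the D box (34.0%) and 28 of 245 without it (11.4%). The A and B boxes and other differences between the annotated genes were not held apart in this split.

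Intronic genes differed by their hosts. Those on the host's own strand, which could be cut from the host transcript, had a summit at 26 of 142 (18.3%, 12.3 to 25.7), and those on the other strand at 9 of 27 (33.3%, 16.5 to 54.0). In replicate 1 the counts were 17 of 142 and 8 of 27, and in replicate 2 they were 24 of 142 and 7 of 27. Where a host carried several snoRNA genes, summits were few: 16 hosts held 36 such genes and 1 had a summit (2.78%, 0.0703 to 14.5). It was C27H5.9, on the strand opposite to its host pdl-1. Of the 133 genes alone in their host 34 had one (25.6%, 18.4 to 33.8). On the host's own strand lay 34 of the 36 genes and 108 of the 133. The snoRNP protein gene nol-56 carried 4 snoRNA genes and the topoisomerase gene top-2 and the ribosomal protein gene rpl-6 carried 3 each, with no summit at any. None of the 36 had both boxes upstream, against 19 of the 133.

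Ribosomal protein genes, classic hosts of snoRNAs, mostly had summits near their own starts. The share of their snoRNA genes with a summit had a wide interval, which holds the 20.7% of all intronic snoRNA genes. The 13 hosts named rpl or rps held 19 intronic snoRNA genes, and 2 of these had a summit (10.5%, 1.30 to 33.1): C16A3.11 in rps-13, with 103, and D1007.20 in rpl-24.1, with 75.1. Both of those summits lay within 1000 bp of the host's 5′ end as well. By that wider window 10 of the 13 hosts had a summit (76.9%), against 5.34% of protein-coding genes that host no snoRNA gene. Of the 117 other hosts with a gene name 30 had one (25.6%), and 26 of their 129 snoRNA genes did. Of the 21 hosts known by sequence name alone 1 had a summit, and 7 of their 22 snoRNA genes did.

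Most intronic summits lay more than 1000 bp from the annotated 5′ end of the host gene. Other transcript starts inside the hosts were not examined. Of the 35 hosts whose snoRNA gene had a summit, 10 had a summit up to 1000 bp from their own start, and in 7 of these it was the snoRNA gene's own. The distance between the snoRNA gene and the host's 5′ end had a median of 2538 bp for the 35 genes with a summit and 1497.5 bp for the 134 without. Within 1000 bp of the host's start lay 7 of the 35 and 53 of the 134. Over all classes, 14 of the 75 genes had the 5′ end of a protein-coding gene within 500 bp, 5 of them intronic and 7 intergenic.

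The proteins that work with snoRNAs were also looked up. Of 12 genes for core, assembly and transcription proteins of snoRNPs 4 had a series summit up to 1000 bp from the start (33.3%, 9.92 to 65.1), where 5.34% of protein-coding genes that host no snoRNA gene did. They were fib-1, the fibrillarin gene, with 121, dkc-1, the dyskerin gene, with 139, snu-13, for a C/D core protein, with 72.0, and ruvb-1, for an assembly ATPase, with 164. dkc-1 and ruvb-1 were in both replicate lists, fib-1 in that of replicate 2 alone and snu-13 in neither. nol-56, for a C/D core protein, was in the list of replicate 2 and not in the series list. With 12 genes the interval is wide.

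By chromosome, summits were at 19 of 74 snoRNA genes on I, 18 of 71 on II, 8 of 54 on III, 13 of 59 on IV, 15 of 55 on V and 2 of 33 on X. The X share (6.06%, 0.743 to 20.2) was the lowest, and its interval overlapped those of the other chromosomes. Both X summits were at intergenic genes, 2 of 23 (8.70%, 1.07 to 28.0), against 31 of 101 intergenic genes on the autosomes (30.7%, 21.9 to 40.7), and the 4 intronic and 6 overlapping X genes had none. In replicate 1 the X count was 1 and in replicate 2 it was 2. Whether the snoRNA genes annotated on X are of the same kind as those on the autosomes was not examined.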

How the data were processed

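The data are peak lists of a ChIP-seq experiment with 2 samples of 1 group, on build ce11 per the labels. Peaks were ranked and thresholded by the authors by the irreproducible discovery rate (IDR), per the file headers, for each replicate and for both together. Of these lists 7 were used. A second ranked list of the series was not, since its replicate columns name no sample. No aligner, peak caller, read depth or control treatment is given in the sources used here. The deposited score is the authors' rescaled IDR, up to 1000. The deposited signal is the authors' peak caller value, of unstated normalization. Classes of genes were compared only within a list, and signals of the 2 replicates were set side by side without scaling. The depth of the libraries is unknown, and intervals cover the sampling of genes only.

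A summit is the deposited offset added to the peak start. It was compared with Ensembl release 115 (WBcel235), whose coordinates fit ce11: every peak lay within the chromosome lengths. The strongest summit within 200 bp of a 5′ end gave a gene its signal, and within 1000 bp for hosts and snoRNP proteins. Sequences came from RefSeq's WBcel235 genome. Counts, exact (Clopper-Pearson, 95%) intervals and correlations were computed with scipy 1.17.1 and numpy 2.4.6 under Python 3.11.15. The counting was checked on simulated data. With 1 group, and the control named in the labels not analysed here, no test between conditions was made.

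The members and lists were chosen with earlier results of these data known, and the A and B box words after the upstream sequences had been seen. Genes named are the 8 intronic and 8 intergenic members of highest signal, 4 overlapping ones, the members nearest the window's edge (2 inside, 2 outside), the 4 members without a summit of highest pooled ranked signal, members sharing a summit, the hosts of these, and snoRNP protein genes with a summit. Others were named after their values were seen. Alternatives tried were the window, the list, each replicate alone, the overlap between replicate peaks, neighbouring genes, the host's strand and the box search.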

Additional observations from a re-analysis of the deposited data

How the results depend on the processing

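The count of 75 snoRNA genes with a summit was within 1.5 times under the alternatives run, 58 to 67 with 1 replicate's list alone, except that 43 were left where a peak in each replicate's list had to overlap 50% of the series peak. The intronic share of 20.7% was 24.3% within 500 bp, 13.6% where the peak was overlapped in both replicate lists by any length and also by 50%, 23.3% without genes that have a protein-coding 5′ end within 500 bp, and 14.8% to 18.3% in the single replicates. The intergenic share of 26.6% was 29.0% within 500 bp, 25.0% within 100 bp, 25.8% in the conservative list, 17.7% with any overlap and 12.1% with 50% overlap in both replicates, 25.2% without protein-coding neighbours, and 21.0% to 21.8% in the single replicates. The difference of -5.90 points, intronic minus intergenic, turned to 1.51 with the 50% overlap. It was -1.99 without protein-coding neighbours, -8.30 with hosts on the same strand only, -8.09 for all genes inside the span of a protein-coding gene, and -6.17 to -3.43 in the single replicates. The log2 ratio of median signals, -0.03, turned to 0.17 within 500 bp and to 0.02 with the 50% overlap. It was -0.13 with any overlap in both replicates, -0.06 without tRNA or snRNA neighbours, -0.08 without protein-coding neighbours, -0.08 with hosts on the same strand only, -0.08 for genes inside a protein-coding span, and -0.07 to -0.04 in the single replicates. The causes were not tested. No direction of the difference between the classes can be read from these values. No paired analysis was possible because there was 1 group and no test. The depth of the libraries is unknown, so a gene without a summit may lack one at this depth only.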
